A study of Mus musculus with 6 samples.

Results

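The 10 genes described here, taken by symbol from the gene table of the series, encode neurotrophic factors or their receptors: the ligands Bdnf, Ntf3 and Cntf, the neurotrophin receptors Ntrk2, Ntrk3, Ngfr and Sort1, the cytokine receptor Lifr, and the GDNF receptors Ret and Gfra1. All 10 were present among the 17666 genes listed. The samples were auditory nerves dissected from cochleas of young adult C57 mice aged 1.5 to 2.5 months, with the 2 cochleas of 1 mouse in each sample. There were 3 samples labelled wildtype and 3 labelled FactorB KO, a knockout of complement factor B, called wildtype-labelled and knockout-labelled libraries here. The design of the targeted allele, the C57 substrain and the sex of the mice are not stated in the labels.

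The values are normalized counts, that is, reads per gene after the authors' scaling and rounding to whole numbers. They summed to between 38675077 and 41496282 in a sample, and read depth is unknown. Cfb, the targeted gene, went against the labels, with 39 to 116 normalized counts in the wildtype-labelled libraries and 336 to 376 in the knockout-labelled ones, so every direction below is between libraries as labelled. All 18 spiral ganglion neuron markers and all 12 peripheral myelin markers had a mean of at least 10 normalized counts, as the labelled nerve would have. So did all 14 organ of Corti, 9 osteoblast, 8 macrophage, 7 red cell and 6 endothelial markers, so this level of detection does not separate nerve from neighbouring tissue. The lists of red cell and of neutrophil and marrow markers did not overlap in summed level between labels, at 7912 to 23783 against 2131 to 3004, and at 756 to 2308 against 24 to 695, higher in the wildtype-labelled libraries.

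Neurotrophins are secreted survival factors of sensory neurons. In the cochlea, Bdnf and Ntf3 come largely from the sensory epithelium and act on spiral ganglion neurons through the receptor tyrosine kinases TrkB, encoded by Ntrk2, and TrkC, encoded by Ntrk3. Ngfr encodes p75, which binds all neurotrophins and is made by Schwann cells that are immature, non-myelinating or denervated, and Sort1 encodes sortilin, the partner of p75 in binding uncleaved neurotrophins. Cntf is a cytokine stored in myelinating Schwann cells that signals through a receptor formed by the products of Cntfr, Lifr and Il6st. Ret is the signalling receptor for GDNF family ligands and Gfra1 its GDNF-binding partner.

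Cntf was the member that differed most between labels, at a 2.22-fold lower mean in the knockout-labelled libraries. Ntrk2 and Ntrk3 were 1.45- and 1.32-fold higher there, without overlap between the labels, and the remaining 7 members overlapped. Limma, adjusted by Benjamini-Hochberg over all genes, called 0 of the 10 members at 0.05, where it called 0.158% of all genes. At an unadjusted p under 0.05 there were 3 members, Cntf lower and Ntrk2 and Ntrk3 higher, which is 3 of 10 against 20.0% of all genes (9.2% lower and 10.8% higher). The values of the same 3 members did not overlap between labels, against 28.5% of all genes (14.9% lower and 13.6% higher). Of the 10, the authors' deposited table gave 1, Cntf, a false discovery rate under 0.05, as a lower gene, against 7.39% of the genes with a rate in either direction (3.25% lower and 4.14% higher). Each of these shares of members rests on 3 genes or fewer. The median log2 difference was 0.33 over the members and 0.006 over all genes, with 7 members above and 3 below 0. A lower level of a transcript in nerve tissue may come from fewer cells of a type or from less RNA per cell, which cannot be told apart here.

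**Figure D1:**
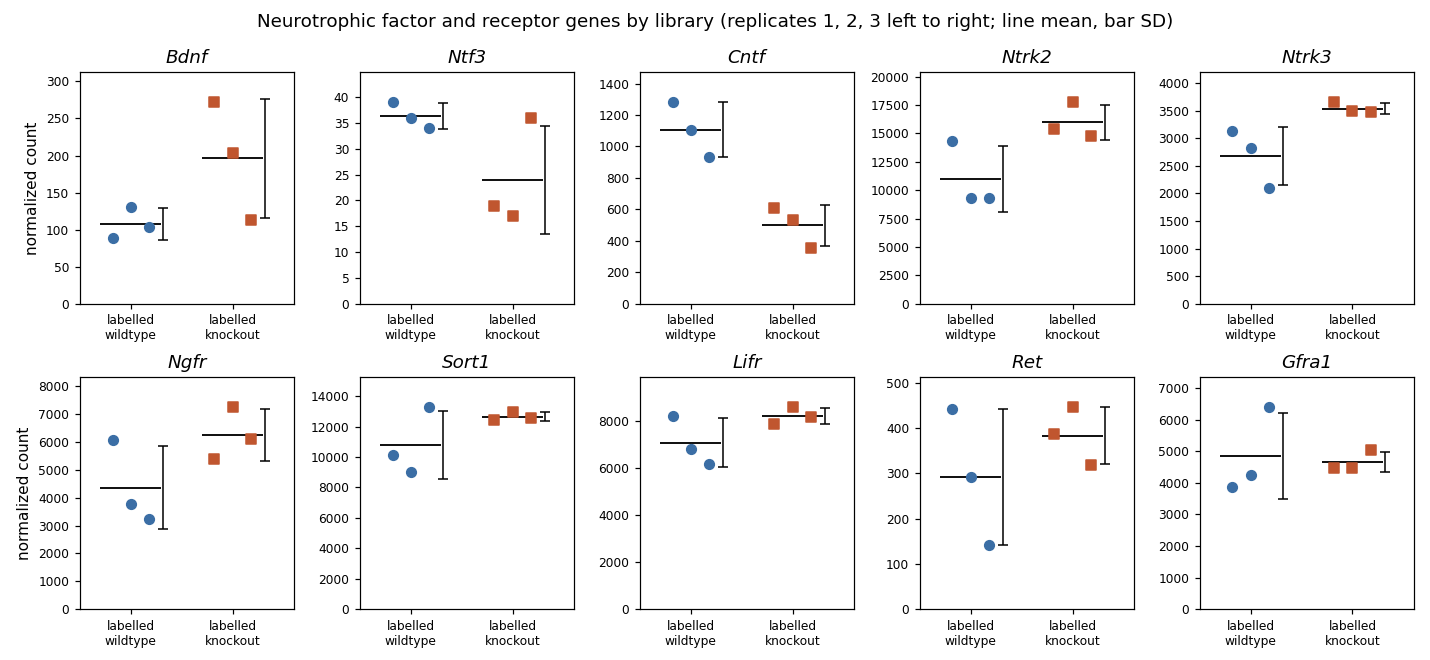
Normalized counts (vertical axes, from 0) of the 10 genes in each library, circles for the wildtype-labelled libraries and squares for those labelled knockout, with the mean as a line and the SD as a bar (n = 3 each). Cntf is lower in all 3 libraries labelled knockout (352 to 609 against 932 to 1282), Ntrk2 and Ntrk3 are higher, and the other genes overlap.

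Among the ligands, Cntf (chromosome 19, 12763660 to 12765632, minus strand, mm10) had normalized counts of 1282, 1103 and 932 in the wildtype-labelled libraries and 609, 533 and 352 in the knockout-labelled ones. The lowest library labelled wildtype lay above the highest labelled knockout. Mean levels were 1106 ± 175 and 498 ± 132 (SD, n = 3 each). The log2 difference was -1.17 (SE 0.23), with an unadjusted p of 0.00136 and an adjusted p of 0.146 by limma. In the authors' deposited table Cntf was 2.22-fold lower with a false discovery rate of 0.000736. Without wildtype replicate 3 the log2 difference was -1.29 and the adjusted p 0.0401, in a fit that called 3.21% of all genes, with 0.663% lower. Over all alternatives the adjusted p ran from 0.0401 to 0.480.

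Cntf shares 847 of its 1073 exon bases, or 78.9%, with Zfp91, the gene before it on the same strand, because a transcript of Zfp91 annotated in GENCODE reads through into Cntf. In RefSeq (GRCm38.p6) the models do not overlap, with Cntf at 12763528 to 12765632 and Zfp91 at 12766939 to 12796123. The gene column of the deposited values is headed RefSeq, with no release given in the sources used here. Under the RefSeq models above, reads within Cntf would not fall in Zfp91. Whether the release used had the same models is not known. Zfp91, a zinc finger ubiquitin ligase, had 9265, 9684 and 9947 normalized counts in the wildtype-labelled libraries and 8257, 8508 and 8318 in the knockout-labelled ones, a log2 difference of -0.20 (SE 0.10, adjusted p = 0.293 by limma). Per 1000 normalized counts of Zfp91 there were 138, 114 and 93.7 of Cntf in the wildtype-labelled libraries and 73.8, 62.7 and 42.3 in the others. The labels did not overlap in this ratio (exact permutation test, two-sided, p = 0.1, the smallest that 3 against 3 allows; adjusted p = 0.267 over 8 ratios).

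Cntf was also compared with the myelin genes of the cells that store it. The summed level of 12 peripheral myelin markers was 436094 to 782150 in the wildtype-labelled libraries and 435957 to 531669 in the others, which overlap. Gene by gene, 5 of the 12 markers were lower without overlap, against 14.9% of all genes. Per 100000 of the summed myelin markers there were 203, 141 and 214 normalized counts of Cntf in the wildtype-labelled libraries and 131, 100.3 and 80.7 in the knockout-labelled ones. These ratios did not overlap between labels (exact permutation test, two-sided, p = 0.1, adjusted p = 0.267).

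The 250 bases before the RefSeq start of Cntf, the gene with the clearest difference, are shown with those of Ntrk2 and Ngfr, 2 members whose levels moved together across libraries. RefSeq promoters (GRCm38.p6) were found for 7 of the 10 members. Capitals mark the letters ACAATG, which SOX factors bind, and GGGCGG, the GC box, on either strand, and TATAAA was searched too. The windows lie at chr19:12765633-12765882 on the minus strand, chr13:58806319-58806568 on the plus strand and chr11:95587699-95587948 on the minus strand, each written along its gene's strand.
Cntf: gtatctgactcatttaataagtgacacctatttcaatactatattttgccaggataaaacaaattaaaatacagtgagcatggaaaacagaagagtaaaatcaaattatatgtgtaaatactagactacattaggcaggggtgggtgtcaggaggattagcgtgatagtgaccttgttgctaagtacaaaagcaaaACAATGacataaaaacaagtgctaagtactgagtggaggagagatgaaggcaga
Ntrk2: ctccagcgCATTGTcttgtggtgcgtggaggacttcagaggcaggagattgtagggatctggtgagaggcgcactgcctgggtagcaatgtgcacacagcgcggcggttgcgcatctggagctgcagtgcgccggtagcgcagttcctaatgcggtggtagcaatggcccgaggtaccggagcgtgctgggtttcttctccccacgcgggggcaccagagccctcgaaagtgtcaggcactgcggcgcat
Ngfr: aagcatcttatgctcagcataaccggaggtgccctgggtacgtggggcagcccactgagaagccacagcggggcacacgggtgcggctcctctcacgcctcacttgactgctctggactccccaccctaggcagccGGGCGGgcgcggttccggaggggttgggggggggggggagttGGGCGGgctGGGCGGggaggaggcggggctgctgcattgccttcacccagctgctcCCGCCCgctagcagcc
The Cntf window is rich in A and T, with 35.6% G and C against a median of 52.4% over 32851 windows of the same length. It holds 1 match to ACAATG that begins 54 bases before the start, and the Ntrk2 window holds 1 that begins 242 bases before it. ACAATG occurs in 10.7% of all windows. The Ngfr window, with 70.4% G and C, holds 4 GC boxes and no ACAATG, and GGGCGG occurs in 32.7% of all windows. None of the 3 windows holds TATAAA, which occurs in 12.4%. The motifs do not overlap one another in these windows, and the matches are letters only, with no measurement of binding.

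Bdnf, the ligand of TrkB (chromosome 2, 109674700 to 109727007), had 89, 131 and 103 normalized counts in the wildtype-labelled libraries and 272, 203 and 113 in the knockout-labelled ones. Knockout replicate 3 fell within the range of the other label, and the other 2 lay above it. Mean levels were 107.7 ± 21.4 and 196.0 ± 79.7 (SD, n = 3 each), a log2 difference of 0.79 (SE 0.35, adjusted p = 0.263 by limma), which was 1.14 without knockout replicate 3 and 0.51 without knockout replicate 1. Markers of the organ of Corti, where Bdnf is made, had mean log2 deviations of 0.92 and 0.83 in knockout replicates 1 and 2 and -0.005 in knockout replicate 3, in the same order as Bdnf. They were -0.77, -1.19 and 0.21 in the wildtype-labelled libraries, which is not the order of Bdnf there. The summed level of the 14 markers was 63241 to 107963 in the wildtype-labelled libraries and 77344 to 97935 in the others. Without overlap, 4 of the 14 were higher, against 13.6% of all genes, and none was at 0. The sum is weighted to the most abundant markers, Gjb6, Gjb2 and Pvalb, whose log2 differences were -0.32, -0.10 and -0.23. All other markers of the list had positive differences. Gene by gene, the median log2 difference of the list was 1.24. Of the 14, 9 had an unadjusted p under 0.05 by limma, against 20.0% of all genes, and 0 were called after adjustment. Ntf3, given above as coming from the same epithelium, did not follow the order of these markers. It had 19 and 17 normalized counts in knockout replicates 1 and 2 and 36 in knockout replicate 3. The part of the markers in the values of either ligand was not tested.

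Ntf3, which encodes neurotrophin 3, the ligand of TrkC (chromosome 6, 126101412 to 126166910), was the least abundant member. It had 39, 36 and 34 normalized counts in the wildtype-labelled libraries and 19, 17 and 36 in the knockout-labelled ones. Knockout replicate 3 again lay among the wildtype-labelled libraries. The log2 difference was -0.65 (SE 0.36, adjusted p = 0.351 by limma) and -0.97 without knockout replicate 3. The ratio of Bdnf to Ntf3 was 2.28, 3.64 and 3.03 in the wildtype-labelled libraries and 14.3, 11.9 and 3.14 in the knockout-labelled ones, where the third value lay inside the range of the other label (exact permutation test, two-sided, p = 0.2, adjusted p = 0.32 over 8 ratios).

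Of the Trk receptors, Ntrk2 (chromosome 13, 58806569 to 59133970) was among the abundant genes of the nerve, above 97.8% of all genes in mean normalized count. Its values were 14320, 9298 and 9314 in the wildtype-labelled libraries and 15350, 17747 and 14792 in the knockout-labelled ones. Wildtype replicate 1 stood 472 normalized counts below the lowest knockout-labelled library, and the other 2 far below. Mean levels were 10977 ± 2895 and 15963 ± 1570 (SD, n = 3 each), a log2 difference of 0.57 (SE 0.20, adjusted p = 0.198 by limma) that was 0.46 without wildtype replicate 3 and 0.77 without wildtype replicate 1. Neurons make the full-length kinase and glia a truncated form without the kinase, and a count per gene does not separate the 7 annotated coding transcripts.

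Ntrk3 (chromosome 7, 78175959 to 78738012) had 3127, 2820 and 2102 normalized counts in the wildtype-labelled libraries and 3655, 3485 and 3471 in the knockout-labelled ones. The knockout-labelled libraries lay close together and above all of the others. Mean levels were 2683 ± 526 and 3537 ± 102 (SD, n = 3 each), and the log2 difference was 0.42 (SE 0.16, adjusted p = 0.216 by limma) and 0.25 without wildtype replicate 3. The ratio of Ntrk2 to Ntrk3 was 4.10 ± 0.70 and 4.52 ± 0.50 (SD, n = 3 each), which overlap (exact permutation test, two-sided, p = 0.6).

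Ngfr (chromosome 11, 95568818 to 95587735) had 6059, 3766 and 3245 normalized counts in the wildtype-labelled libraries and 5395, 7247 and 6110 in the knockout-labelled ones. Wildtype replicate 1 lay inside the range of the other label. The log2 difference was 0.56 (SE 0.24, adjusted p = 0.254 by limma), with 0.83 without wildtype replicate 1 and 0.38 without wildtype replicate 3. The other 10 markers of non-myelinating and satellite glia had a median log2 difference of -0.089 and a summed level of 239132 to 351294 against 217211 to 234450. Without overlap, 1 was higher and 1 lower, against 13.6% and 14.9% of all genes. The ratio of Ntrk2 to Ngfr was nearly constant over the 6 libraries, at 2.36, 2.47 and 2.87 in the wildtype-labelled libraries and 2.85, 2.45 and 2.42 in the others. Sort1 (chromosome 3, 108284082 to 108361511) had 10133, 8989 and 13261 normalized counts in the wildtype-labelled libraries and 12439 to 12969 in the knockout-labelled ones, where wildtype replicate 3 was the highest of all 6. Its log2 difference was 0.25 (SE 0.16, adjusted p = 0.421 by limma) and 0.41 without wildtype replicate 3.

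Lifr, the receptor chain shared by LIF and CNTF (chromosome 15, 7090614 to 7197489), had 8221, 6807 and 6191 normalized counts in the wildtype-labelled libraries and 7880, 8581 and 8171 in the knockout-labelled ones. Wildtype replicate 1 lay inside the range of the other label, and the log2 difference was 0.22 (SE 0.13, adjusted p = 0.381 by limma), falling to 0.13 without wildtype replicate 3. Of the other chains of the CNTF receptor, Cntfr, the binding chain, had means of 4307 ± 264 and 4896 ± 525 (SD, n = 3 each) and a log2 difference of 0.18 (adjusted p = 0.427 by limma). Il6st, which encodes the signalling chain gp130, had 14988, 10081 and 13693 normalized counts in the wildtype-labelled libraries and 20504, 17193 and 18881 in the knockout-labelled ones, without overlap, and a log2 difference of 0.56 (SE 0.18, adjusted p = 0.181 by limma). Thus the 3 receptor chains had positive differences while Cntf, their ligand, had a negative one, and limma called none of these genes. The longest transcripts of Lifr and Il6st have 9655 and 8678 bases, and that of Cntf 1073. After the correction for transcript length described below, Lifr had -0.21 and Il6st 0.175 (adjusted p = 0.508 by limma). Cntfr then had 0.31 (adjusted p = 0.270 by limma) and Cntf -0.92.

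Ret (chromosome 6, 118151745 to 118197718) had 443, 292 and 142 normalized counts in the wildtype-labelled libraries and 386, 446 and 319 in the knockout-labelled ones. The wildtype-labelled libraries spread more widely, and the labels overlapped. The log2 difference of 0.52 (SE 0.40, adjusted p = 0.490 by limma) came down to 0.079 without wildtype replicate 3. Gfra1 (chromosome 19, 58235604 to 58455909) had 3866, 4262 and 6397 normalized counts in the wildtype-labelled libraries and 4487, 4489 and 5040 in the knockout-labelled ones. Its log2 difference was -0.018 (SE 0.19, adjusted p = 0.970 by limma) and 0.20 without wildtype replicate 3. Gfra1 and Ret deviated in opposite directions in wildtype replicate 3, by 0.45 and -1.15 on the log2 scale, and the ratio of Gfra1 to Ret there was 45.1, against 8.73 to 15.8 in the other 5 libraries.

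**Figure D2:**
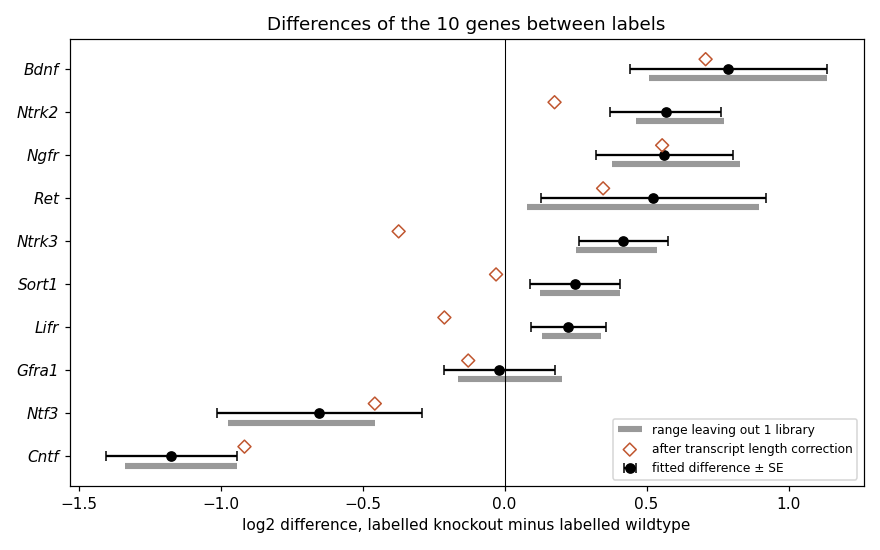
Log2 difference of each gene, labelled knockout minus labelled wildtype (horizontal axis): dots with SE bars are the limma estimates on all 6 libraries, grey bars the range over fits that leave out 1 library, and open diamonds the estimate after a correction for transcript length. Cntf stays between -1.34 and -0.94 when 1 library is left out, Gfra1 crosses 0, and Ntrk3, Sort1 and Lifr change sign after the length correction.

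Levels were compared between genes per 1000 bases of the longest annotated transcript. In the wildtype-labelled libraries the order of this level was Sort1 (1579 ± 324), Ngfr (1264 ± 434), Ntrk2 (1255 ± 331), Gfra1 (1043 ± 293) and Cntf (1030 ± 163), followed by Lifr (733 ± 108), Ntrk3 (136 ± 26.7), Ret (53.6 ± 27.6), Bdnf (25.2 ± 5.0) and Ntf3 (24.5 ± 1.7), as normalized counts per 1000 bases (SD, n = 3). Neighbours among the first 5 differed by less than the larger of their SDs, and so did Bdnf and Ntf3. In the knockout-labelled libraries Sort1, Ntrk2 and Ngfr stood together at the top, at 1850 ± 41.4, 1826 ± 179 and 1814 ± 271, and Cntf, at 464 ± 123, was below Gfra1 (1007 ± 68.7) and Lifr (850 ± 36.5). Receptors other than Ret thus stood well above Bdnf and Ntf3 in both labels. The level of Ntrk3 depends on its longest transcript, which has 19703 bases, and would be higher with a shorter one.

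Differences between labels went with transcript length over the whole table. Among the members the shortest 2, Cntf and Ntf3, had the lowest differences, and the other 8 did not follow the order of length. In the shortest decile of genes by longest transcript, up to 1284 bases, the median log2 difference was -0.30, and it increased through each decile to 0.39 in the longest decile, from 6583 bases. Cntf, with 1073 bases, was in the shortest decile and Ntf3, with 1483, in the next. Ntrk2, Ntrk3, Sort1 and Lifr were all in the longest decile, where 86.7% of genes had a positive difference. After each library was corrected for its trend on length, the log2 difference of Cntf was -0.92 (SE 0.24, adjusted p = 0.233 by limma) and that of Ntrk2 0.18 (SE 0.16, adjusted p = 0.620). Ntrk3, Sort1 and Lifr then had differences of -0.37, -0.030 and -0.21, against 0.42, 0.25 and 0.22 before. Ngfr and Bdnf, of middle length, kept 0.56 and 0.71.

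**Figure D3:**
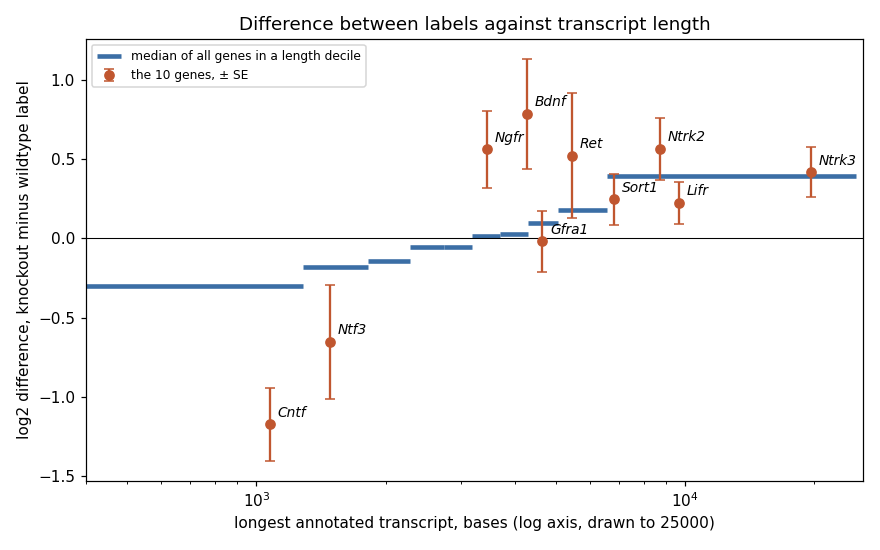
Log2 difference, labelled knockout minus labelled wildtype (vertical axis), against the longest annotated transcript in bases (log axis). Blue bars are the medians of all genes in each decile by length, climbing from -0.30 to 0.39, and orange points with SE bars are the 10 genes, of which Cntf lies below and Ngfr and Bdnf above the bar of their decile, while Ntrk3, Sort1 and Lifr, near or under theirs, are the genes that turn negative after the length correction.

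Marker lists moved with single libraries as well. Wildtype replicate 3 had the lowest mean deviation of the spiral ganglion neuron list (-0.40) and the highest of the red cell list (2.53), and it also had the lowest values of Ntrk3, Ngfr, Lifr and Ret and the highest of Gfra1 and Sort1 of all 6 libraries. The summed level of the neuron list was 364330 to 612445 in the wildtype-labelled libraries and 508701 to 618570 in the others. Of its 18 markers, 3 were higher without overlap, near the 13.6% of all genes, and none was at 0. Without wildtype replicate 3 the differences of Ntrk2, Ntrk3, Ngfr, Lifr and Ret were smaller, as given above, and those of Cntf and Sort1 larger. Endothelial markers were higher in summed level in the knockout-labelled libraries, at 11025 to 12886 against 8247 to 8735. In this short list 4 of 6 markers were higher without overlap, against 13.6% of all genes. The part of these lists in the values of the receptors was not tested.

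**Figure D4:**
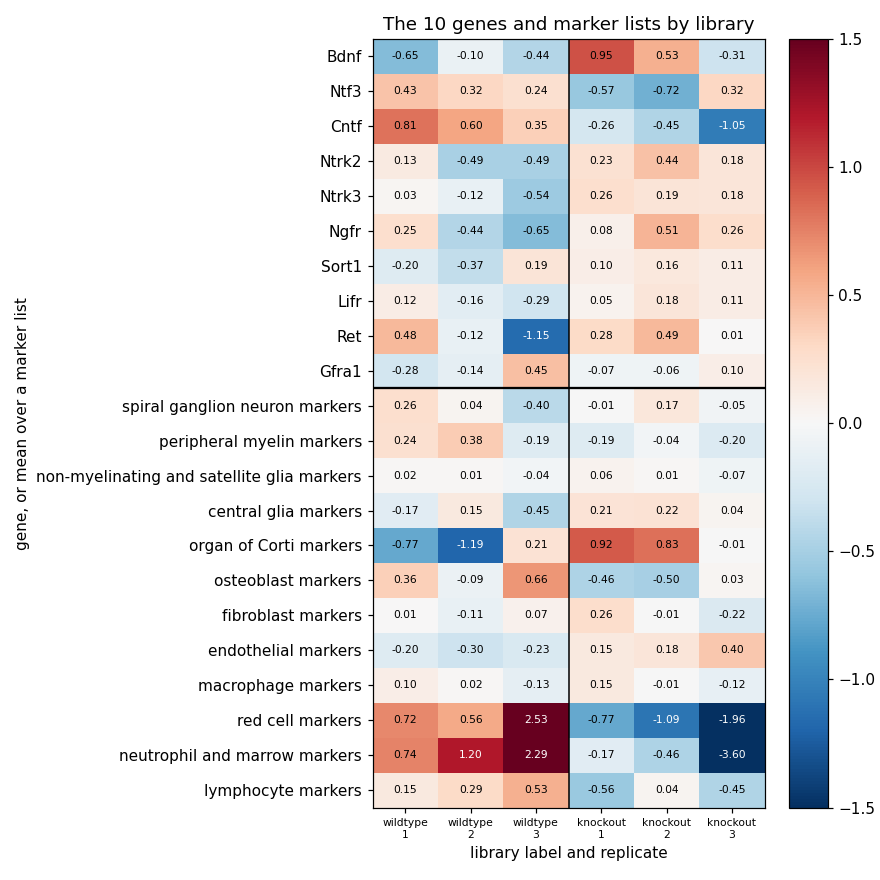
Log2 deviation of each of the 10 genes (upper rows) and mean deviation of each marker list (lower rows) from the mean of the 6 libraries, with the value printed in each cell and the libraries in columns. Cntf is above 0 in the 3 libraries labelled wildtype and below 0 in the others, and wildtype replicate 3 stands apart in Ret (-1.15), Gfra1 (0.45) and the red cell list (2.53).

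The genes most like Ntrk2, Ntrk3 and Ngfr across libraries differed between the 3 receptors. Over the 6 libraries and the 13376 genes whose mean reached 100, the Pearson correlation of log2 values with Ntrk2 was highest for Prune2 (0.998), Cit (0.998) and Frrs1l (0.997). With Ntrk3 it was highest for Ogt (0.999), Slc26a6 (0.996) and Npr1 (0.994), and with Ngfr for Ubap2 (0.998), Carm1 (0.997) and Ube3b (0.997). Among the members, Ngfr correlated with Lifr at 0.992 and with Ntrk2 at 0.965, and Ntrk2 with Lifr at 0.951. Ntrk3 correlated less closely, at 0.855 with Ntrk2, 0.862 with Ngfr and 0.904 with Lifr. These are descriptions over 6 libraries that share the same dissections, and 347, 150 and 425 genes exceeded 0.95 with Ntrk2, Ntrk3 and Ngfr.

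Other genes of the pathways were read from 7 lists with 109 measured genes. Limma called 0 of them at an adjusted p of 0.05, with 17 at an unadjusted p under 0.05, of which 11 were higher and 6 lower, that is 15.6% against 20.0% of all genes. Of the 109, 2 were called in the authors' deposited table, against 7.39% of all genes with a rate. Kidins220, a scaffold that binds Trk receptors, was 1.36-fold higher there (false discovery rate 0.0442), with a log2 difference of 0.45 by limma (adjusted p = 0.201). Psenen, a subunit of gamma-secretase, which cleaves p75, was 1.74-fold lower there (false discovery rate 0.000845), with 504, 652 and 631 normalized counts in the wildtype-labelled libraries and 364, 348 and 318 in the knockout-labelled ones, a log2 difference of -0.79 by limma (SE 0.16, adjusted p = 0.146). Their longest transcripts have 7409 and 708 bases, and after the length correction the log2 differences were 0.14 and -0.45.

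Among 11 further neurotrophin ligands and receptors, 1 had an unadjusted p under 0.05 (9.09%, against 20.0% of all genes), and the median log2 difference was 0.079. It was Tnfrsf19, a receptor related to p75, with a log2 difference of 0.33 (adjusted p = 0.229 by limma). Sorl1, a sorting receptor related to sortilin, had 2363, 1314 and 16404 normalized counts in the wildtype-labelled libraries and 5233 to 6906 in the knockout-labelled ones, so wildtype replicate 3 was far above all others. Its direction depended on that library and on the scale. The mean was 0.926 times as high in the knockout-labelled libraries and the authors' deposited table gave a 1.08-fold lower level (false discovery rate 0.967), while the log2 difference by limma was 0.73 (adjusted p = 0.657). Without that library the log2 difference was 1.80 with an adjusted p of 0.0250 by limma.

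Of 9 measured genes of the GDNF family, with a median log2 difference of 0.35, Ncam1, an adhesion molecule that also binds GDNF, was the 1 gene at an unadjusted p under 0.05. Ncam1 had a log2 difference of 0.59 (adjusted p = 0.180 by limma), and Gfra4, the receptor of persephin, one of -0.48 (adjusted p = 0.273). The 12 measured genes of the CNTF and LIF family had a median of 0.070, and the 1 gene at an unadjusted p under 0.05 was Il6st. The 13 genes of neurotrophin processing had a median of 0.077 with 2 such genes, Pcsk5 and Plat. Cpe, which sorts and trims prohormones, and Serpini1, an inhibitor of tissue plasminogen activator, were the most abundant of them, with log2 differences of 0.040 and -0.12. Genes at an unadjusted p under 0.05 were 20.0% of all genes. They were 11.1% of the GDNF list, 8.33% of the CNTF and LIF list and 15.4% of the processing list.

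The 33 genes of Trk signalling had a median log2 difference of 0.063, with 3 higher and 2 lower at an unadjusted p under 0.05. That is 15.2% of the list, against 20.0% of all genes (10.8% higher and 9.2% lower). Ptpn11, a phosphatase needed for signalling to the kinase ERK, had a difference of 0.038. The 20 genes of p75 signalling had a median of -0.014, with 4 lower and 0 higher. Those 4 are 20.0% of the list, equal to the share over all genes. Maged1, which binds p75, and Mapk10, a neuronal JNK kinase, had differences of 0.18 each (adjusted p = 0.497 and 0.583 by limma). The 11 genes of gp130 signalling had a median of 0.16, with 3 higher, or 27.3% of this short list. Jak1 and Stat3, the kinase and the transcription factor through which CNTF signals, had differences of 0.20 and 0.16 (adjusted p = 0.388 and 0.549 by limma).

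**Figure D5:**
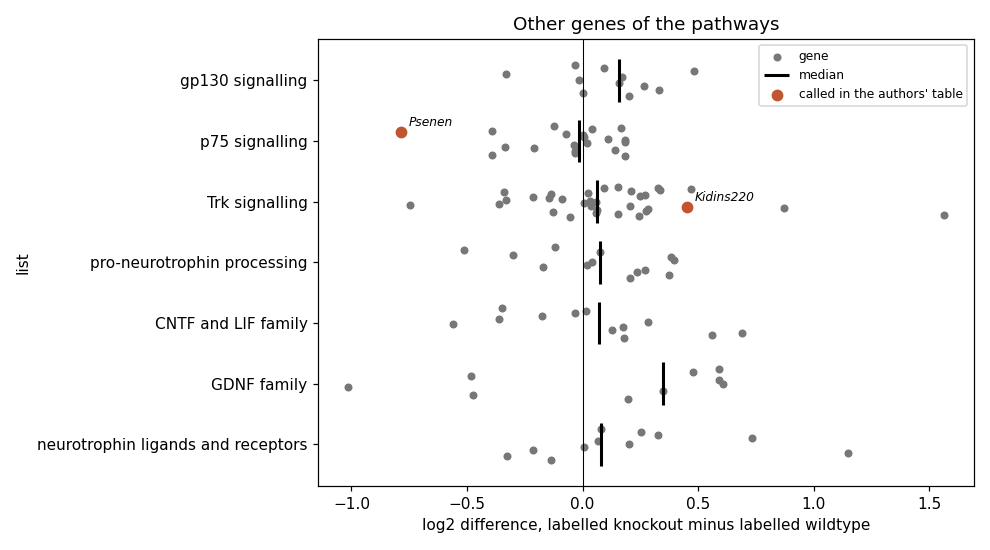
Log2 difference, labelled knockout minus labelled wildtype (horizontal axis), of the 109 other genes of the pathways, 1 dot a gene, in 7 lists (vertical axis), with the list median as a bar and genes called in the authors' deposited table in orange. Medians lie between -0.014 and 0.35, and Psenen (-0.79) and Kidins220 (0.45) are the called genes.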

How the data were processed

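Auditory nerve RNA of 6 mice was sequenced, and per the labels' protocols a TruSeq RNA kit from Illumina was used. The submitters' processing notes name DESeq2, TopHat2, Partek and mm10 but no roles. Use of strand is not given in the sources used here. For each gene and sample the authors deposited 1 score, a normalized count rounded to whole numbers, with their signed fold change score and false discovery rate, which 2061 genes lack. There were 0 unused columns of sample values. Because the values are not raw counts, no count test was run. Limma 3.58.1 in R 4.3.3 was fitted to log2(value + 1) of all 17666 genes with label as the only term, eBayes with a trend, and Benjamini-Hochberg adjustment at 0.05; a mean of at least 1 was required and removed 0 genes. Fold changes on this scale understate changes of low genes. The fit was also run on simulated data with independent noise for each gene. Those data held no trend on transcript length and no shifts shared by genes, so they do not test the fit under either. Coordinates and transcript lengths come from GENCODE M21 (GRCm38, the assembly of mm10), and 98.9% of genes had a length. The length correction subtracted from each library's log2 values a loess fit (span 0.5) of their deviations on the log of the longest transcript. Ratios were compared by exact permutation. Antisense gene models overlap Bdnf, Gfra1 and Sort1, so without strand their reads cannot be told apart. P-values measure the spread between libraries, in which differences between mice and between their dissections cannot be told apart.

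The members, lists and tests were chosen with earlier results of these data known. The text names all members and, per list, genes called by limma, up to 3 called by the authors, and the 2 most abundant, with Cfb, Zfp91 and the 3 genes most correlated with Ntrk2, Ntrk3 and Ngfr. Genes named in counts of 5 or fewer, and the motifs, were chosen after values were seen. Some genes of the lists, and 1 of the ratios, are not reported here. The 17 alternatives included other pseudocounts, filters, scalings and weights, a replicate block, a length correction and leaving out libraries.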

Additional observations from a re-analysis of the deposited data

How the results depend on the processing

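The count of member genes past the threshold was 0 under all settings except without wildtype replicate 3, where it was 1, Cntf, giving a range of 0 to 1 when 1 library was left out. The count over the pathway lists ranged likewise from 0 to 3 (Sorl1, Plat and Rps6ka1 without wildtype replicate 3). The count over all genes was 28, and it was 16 without a trend, 111 with sample weights, and 86 with replicate 3 of both labels left out, a setting chosen after seeing the data. When 1 library was left out it ranged from 0 to 566. It was 0 whichever knockout-labelled library was left out, by limma, with 1797 to 2218 genes at an unadjusted p under 0.05.

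With the replicate number as a replicate block, 7 genes were called in all and 0 members. The labels do not say that numbers pair the mice, and the deviations of same-numbered libraries correlated at -0.065, 0.103 and 0.246, with wildtype replicate 1 closest to knockout replicate 2.

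The log2 difference of Gfra1 turned positive with sample weights (0.12), with replicate 3 of both labels left out (0.14) and in some fits without 1 library (range -0.16 to 0.20). After the correction for transcript length Ntrk3 (-0.37), Sort1 (-0.030), Lifr (-0.21), Ptpn11 (-0.28), Mapk10 (-0.12) and Stat3 (-0.065) turned negative. Cpe was -0.033 with sample weights and -0.022 with replicate 3 of both labels left out. Leaving out 1 library gave -0.091 to 0.15 for Cpe, -0.17 to 0.39 for Ptpn11 and -0.017 to 1.80 for Sorl1. The cause was not tested. Cntf, Ntrk2, Bdnf, Ntf3, Ngfr and Ret kept their sign under all 17 alternatives. Read depth is unknown, so no interval for counting error could be given.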
